A study of Rattus norvegicus with 9 samples.

Results

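Described here are 96 transcripts of rat PC12 cells that stood far above their control level with erastin. With erastin and PQR NPs together they were lower but still above control. They were chosen by their own counts in these libraries, out of 41078 transcripts in the table. With CPM (a transcript's counts scaled to the total count of its library), a member had a mean of at least 5 CPM with erastin and a log2 rise over control of at least 2. Its log2 difference from control under co-treatment was at least 0.7, and its log2 difference from erastin under co-treatment was -0.5 or lower. All log2 differences of group means were taken after adding 0.5 CPM. Every erastin library had to lie above every co-treated library, every co-treated library above every control library, and the mean of the 9 libraries had to be under 1000 CPM. The choice thus used all 3 groups and all 9 libraries, so the differences between groups given below are descriptions of the members and support no further claim.

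PC12 is a line derived from a rat adrenal pheochromocytoma and is labelled as neuron-like and wild type. The control cells (3 libraries) were untreated, the second group (3 libraries) received erastin, and the third group (3 libraries) received erastin and PQR NPs together. The series uses erastin to set up its model of PD and asks how the PQR NPs, a nanodelivery system, act against the damage. All libraries come from 1 cell line, and no group received PQR NPs without erastin, so an effect of the particles alone cannot be told apart from their effect on erastin-treated cells. The sources used here do not give doses, times or the makeup of the particles.

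Erastin inhibits system xc-, the exchanger that brings cystine into the cell in return for glutamate. Cystine supplies cysteine for glutathione, and glutathione is the substrate with which the enzyme GPX4 detoxifies lipid peroxides. When this supply fails, iron-dependent oxidation of membrane lipids can kill the cell by ferroptosis. Loss of cysteine is also known to start transcriptional stress responses, among them those led by ATF4 and NRF2, which raise genes of amino acid transport, glutathione synthesis and redox control.

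Which of these responses the members belong to was not tested. The table identifies transcripts by Ensembl ID alone, and 0 of the 96 member IDs matched the gene table used here, so no gene name, gene role, gene list, cell type marker or sequence is given. The members are identified by their rank in mean CPM with erastin, from 1 for the highest to 96 for the lowest. CPM is not corrected for transcript length, so the ranks order counts and not numbers of RNA molecules. Only 4 members are printed by ID, those with the highest mean CPM with erastin, the largest log2 rise, and the largest and smallest log2 fall under co-treatment. A count refers to 1 transcript, and the sources used here do not say how reads shared by several transcripts of a gene were assigned.

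The libraries held 34772755 to 40826754 counts. All 96 members passed the filter on low counts. The labels do not state that libraries of a group were grown as separate cultures, so every p-value here reflects only the spread among these libraries, which may be technical. Libraries of the same group were not copies of each other, since comparing their counts over transcripts gave chi-square values of 31.7 to 71.4 for each degree of freedom. In this bulk RNA, fewer cells that express a transcript and less of the transcript per cell cannot be told apart.

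The members together took 0.139%, 0.148% and 0.143% of the counts in the control libraries. They took 1.16%, 1.07% and 1.07% with erastin, and 0.385%, 0.379% and 0.382% under co-treatment. The co-treated libraries lay close together. As group means these were 0.143% ± 0.00451, 1.10% ± 0.0551 and 0.382% ± 0.00276 (SD, n = 3 each). A few members carried much of this sum: the member of rank 1 held 16.3% of the summed CPM gained with erastin, and those of ranks 1 to 5 held 45.0%. Without ranks 1 to 5 the other 91 members took 0.0835% ± 0.00251 in the control group, 0.610% ± 0.0256 in the erastin group and 0.192% ± 0.00739 in the co-treated group (SD, n = 3). The order of the groups in these sums is fixed by the choice of members.

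**Figure D1:**
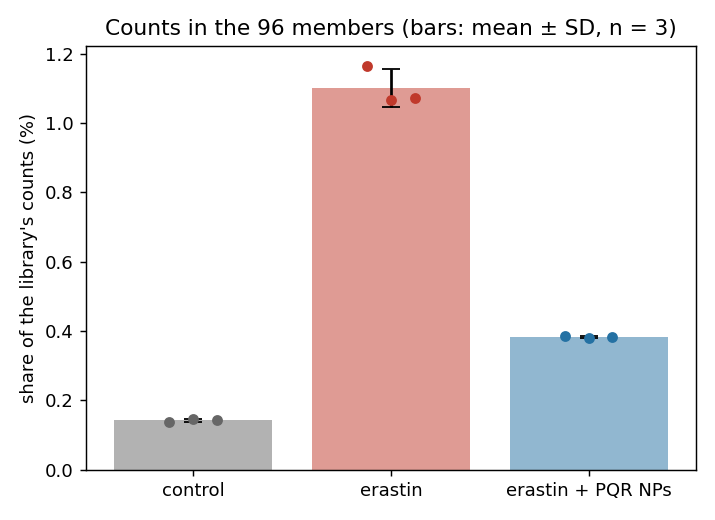
Share of each library's counts (vertical axis, %) that fell on the 96 members, by group. Points are libraries and bars are means with SD (n = 3): the control libraries sat between 0.139% and 0.148%, the co-treated libraries between 0.379% and 0.385%, and the erastin libraries at 1.07% or above.

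Single members spanned a wide range of levels. Mean control CPM ran from 0.0355 to 231 with a median of 4.40, mean erastin CPM from 5.10 to 1619 with a median of 33.4, and mean co-treated CPM from 0.569 to 507 with a median of 12.2. Among all 17123 transcripts tested, the medians were 13.5, 14.5 and 13.9 CPM in the same order. In controls, 21 of the 96 members were under 1 CPM and 28 were at 10 CPM or more. The log2 rise with erastin was 2.00 to 6.84 (median 2.85), and it was 4 or more in 9 members. Under co-treatment the log2 difference from control was 0.71 to 4.54 (median 1.08), with 54 members at 1 or more and 12 at 2 or more. Relative to erastin, the log2 difference of the co-treatment was -4.04 to -0.60 (median -1.64), and it was -1 or lower in 80 members and -2 or lower in 30.

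**Figure D2:**
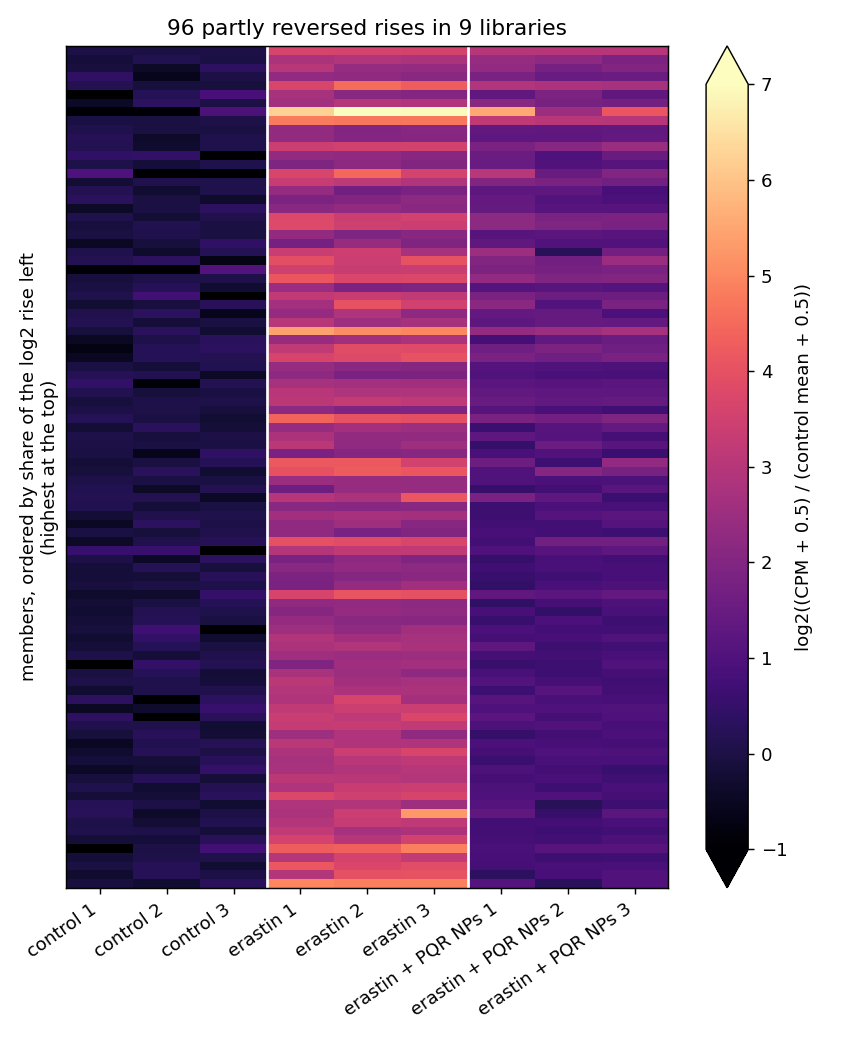
The 96 members (rows) in the 9 libraries (columns), coloured by log2 of CPM + 0.5 over the control mean + 0.5, with rows ordered by the share of the log2 rise left under co-treatment. Colours end at -1 and 7, and values beyond take the end colour. Within each row the erastin libraries are the brightest and the control libraries the darkest, as the choice of members requires, and the co-treated libraries mostly grow darker from top to bottom.

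ENSRNOT00000007698 had the highest CPM with erastin. It was at 58.7, 57.2 and 61.9 CPM in controls, 1660, 1591 and 1605 CPM with erastin, and 539, 498 and 479 CPM under co-treatment. All 3 groups were tight and far apart, with means of 59.2 ± 2.40, 1619 ± 36.2 and 505 ± 30.9 CPM (SD, n = 3). This was a 27.3-fold rise, of which an 8.53-fold difference from control was left under co-treatment. On the log2 scale the rise was 4.76 (SE 0.0381) and the difference left was 3.08 (SE 0.0604). In edgeR's fit over all transcripts its adjusted p was 7.29e-09 between erastin and control, 2.37e-06 between co-treated and erastin libraries, and 8.06e-08 between co-treated and control libraries.

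ENSRNOT00000077261 had the largest log2 rise once 0.5 CPM was added, from 0, 0 and 52 counts in the control libraries (0, 0 and 1.36 CPM). In plain CPM the member of rank 83, at 4, 0 and 0 counts in controls, rose further (264-fold against 239-fold). Its log2 fold change in edgeR's fit was also larger (7.95 against 7.91). ENSRNOT00000077261 was at 71.1, 136 and 118 CPM with erastin and at 43.7, 4.97 and 16.1 CPM under co-treatment. The co-treated libraries were 8.80-fold apart, the widest spread under co-treatment among the members, although none of them reached the erastin range or fell into the control range. The log2 rise was 6.84 (SE 0.692), and 4.54 (SE 1.08) was left. These values rest heavily on single libraries. Without control replicate 3 the rise was 7.77 and the difference left 5.47, with the control mean listed at 0. Without co-treated replicate 1 the co-treated mean went from 21.6 to 10.5 CPM, the difference left to 3.53 and the log2 difference from erastin from -2.30 to -3.30. The transcript was called higher with erastin (edgeR adjusted p 0.00187) while its co-treated and erastin libraries were not called different (edgeR adjusted p 0.0924). The latter became 0.0392 without control replicate 3, the library that held its 52 counts (range over 15 alternatives, 0.0362 to 0.273). Its call for the co-treatment against control (edgeR adjusted p 0.0259) was lost without control replicates 1 and 2 (0.0549 and 0.0711), erastin replicate 2 (0.0516) or co-treated replicates 1 and 3 (0.0671 and 0.0555), with only the 6 libraries compared (0.0694) and with the replicate number as a block (0.0531; range over 15 alternatives, 0.0148 to 0.0711).

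ENSRNOT00000010591, at rank 43, had the largest fall. It was at 1.33, 1.10 and 1.86 CPM in controls, 60.5, 55.2 and 56.9 CPM with erastin, and 3.69, 1.86 and 3.52 CPM under co-treatment. The lowest co-treated library stood just above the highest control library, so this member is close to the edge of the choice. From erastin its log2 difference was -4.04 (SE 0.269), and 0.87 (SE 0.313) of the rise of 4.91 (SE 0.169) was left. The edgeR adjusted p was 6.19e-06 between erastin and control, 1.81e-05 between co-treated and erastin libraries, and 0.0386 between co-treated and control libraries. The last call did not hold without control replicates 1 and 2 (0.0964 and 0.122), erastin replicates 1, 2 and 3 (0.0501, 0.0571 and 0.0549) or co-treated replicates 1 and 3 (0.105 and 0.107), nor with only the 6 libraries compared (0.0946; range over 15 alternatives, 0.00174 to 0.122).

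ENSRNOT00000085295, at rank 88, had the smallest log2 difference between co-treated and erastin libraries once 0.5 CPM was added. In plain CPM the members of ranks 51 and 5 lay nearer to erastin, at 0.655 and 0.652 of their erastin means against 0.639. Their log2 fold changes in edgeR's fit were also smaller (-0.684 and -0.687 against -0.718). ENSRNOT00000085295 was at 0.720, 0.485 and 1.18 CPM in controls, 10.2, 6.26 and 6.15 CPM with erastin, and 5.80, 3.92 and 4.72 CPM under co-treatment. Here the highest co-treated library came close to the lowest erastin library. The log2 difference of the co-treatment from erastin was -0.60 (SE 0.269), which was not called (edgeR adjusted p 0.112; range over 15 alternatives, 0.0637 to 0.352). Its log2 rise of 2.63 (SE 0.317) and the 2.04 (SE 0.268) left under co-treatment were both called (edgeR adjusted p 0.000156 and 0.00322).

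**Figure D3:**
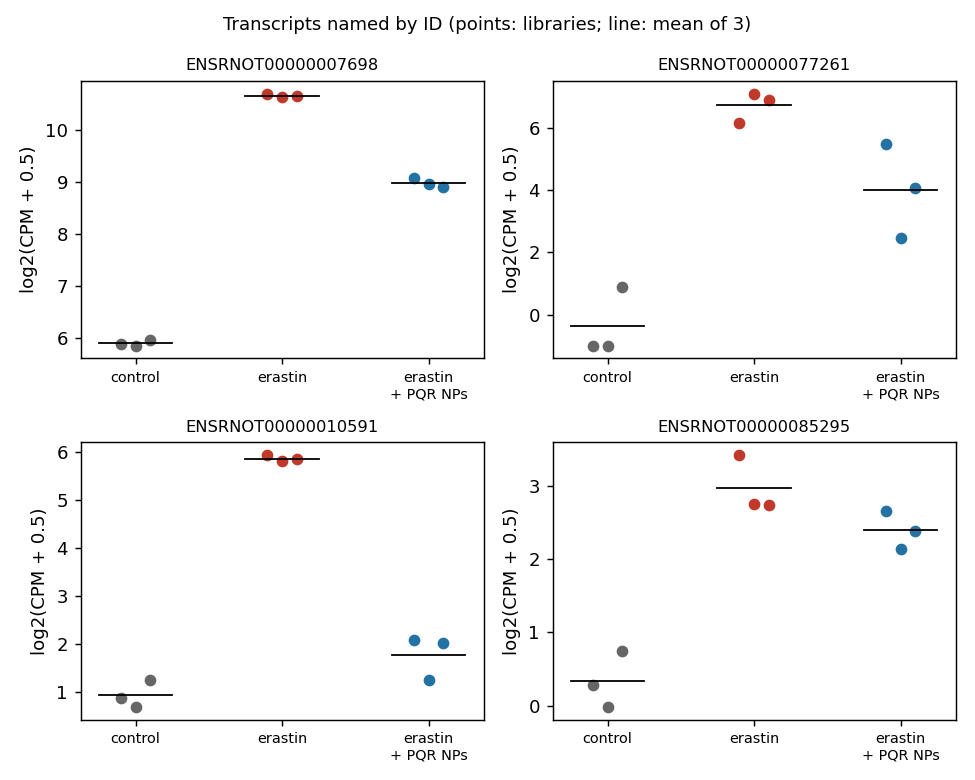
Level of the 4 transcripts named by ID, as log2(CPM + 0.5) on the vertical axis (a separate range in each panel), by group. Points are libraries and lines their means: the 3 groups of ENSRNOT00000007698 are tight and far apart, the co-treated libraries of ENSRNOT00000077261 are 8.80-fold apart, those of ENSRNOT00000010591 lie near control, and those of ENSRNOT00000085295 lie near erastin.

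How much of a rise was left depended on the scale. On the log2 scale, the share left is the log2 difference of the co-treatment from control divided by that of erastin from control. It ran from 0.177 to 0.830 with a median of 0.413 (quartiles 0.312 and 0.544), and 31 members kept more than 0.5 of their log2 rise. In CPM, the share left is the difference of the co-treated mean from the control mean as a percentage of that of the erastin mean. It ran from 2.84% to 62.2% with a median of 20.5% (quartiles 13.4% and 28.2%), and only 4 of the 96 members kept more than 50% of the added counts, while 46 kept less than 20%. The lower bound of 0.7 in the choice sets a floor on the log2 share that is lower for larger rises. Median log2 shares were 0.418, 0.423 and 0.436 in the 3 co-treated libraries taken singly, measured from the means of log2 values.

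The members with the most left, at a log2 share of 0.7 or more, were those of ranks 5, 51, 62 and 88, and they kept 56.9% to 62.2% of the added CPM. The member of rank 5 had the largest share, 0.830. It was at 39.3, 37.8 and 38.6 CPM in controls, 488, 475 and 469 CPM with erastin, and 308, 312 and 313 CPM under co-treatment. Its libraries differed little within each group, and it stayed 8.08-fold above control, with a log2 difference of -0.62 (SE 0.0186) from erastin (edgeR adjusted p 2.12e-05). The member of rank 51 was at 8.50, 4.11 and 6.49 CPM in controls, 33.4, 32.5 and 29.7 CPM with erastin, and 24.2, 18.9 and 19.5 CPM under co-treatment. At rank 62 the values were 2.03, 2.58 and 2.28 CPM in controls, 18.7, 20.9 and 18.9 CPM with erastin, and 14.3, 12.8 and 9.94 CPM under co-treatment. Both were called lower under co-treatment than with erastin (edgeR adjusted p 0.0362 and 0.00443). The fourth of these, rank 88, is ENSRNOT00000085295.

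At the other end, 21 members kept a log2 share under 0.3 and 2.84% to 13.5% of the added CPM. Their median rise was 3.30 and their median log2 difference from control under co-treatment was 0.84, close to the lower bound of the choice. The 44 members with a share from 0.3 up to 0.5 had a median rise of 2.58 and kept a median 18.6% of the added CPM. The 27 with a share from 0.5 up to 0.7 had a median rise of 3.14 and kept a median 33.6%. Ranks 1, 3, 7 and 9 were among these 27. The member of rank 8 lay between these extremes. It was at 8.64, 11.7 and 7.93 CPM in controls, 434, 335 and 316 CPM with erastin, and 50.9, 55.9 and 63.5 CPM under co-treatment. It kept 0.487 of a log2 rise of 5.19 (SE 0.214) but 13.4% of the added CPM.

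**Figure D4:**
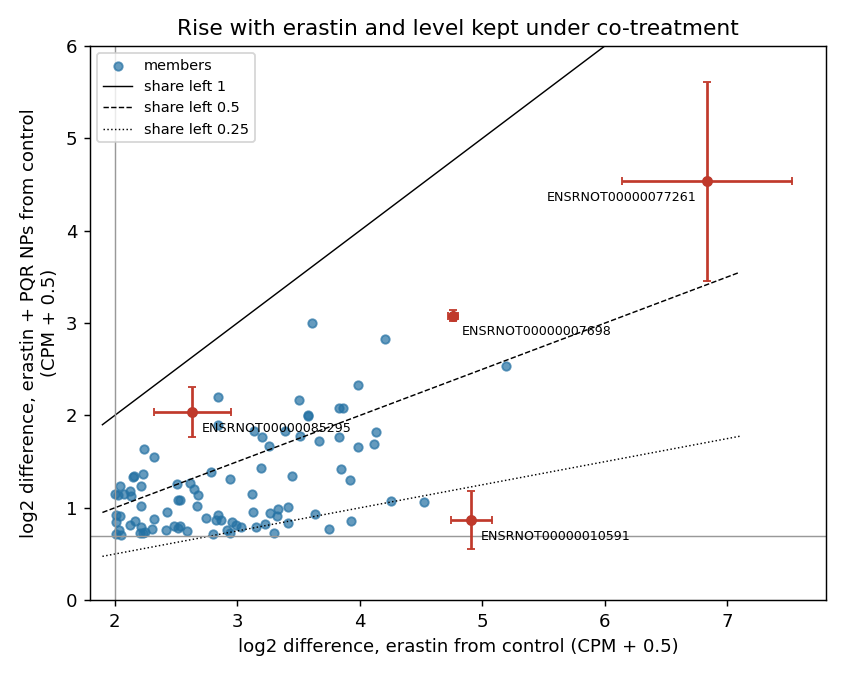
Each member's log2 difference from control with erastin (horizontal axis) and under co-treatment (vertical axis), both of group means of CPM + 0.5. Red points with SE bars are the 4 transcripts named by ID, and the SE is that of a difference of mean log2 values of the libraries. Black lines mark shares left of 1, 0.5 and 0.25, and grey lines mark the bounds 2 and 0.7 of the choice. No member reaches the line of share 1, and ENSRNOT00000010591 lies lowest against the lines, at a share of 0.177.

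The level with erastin went with small differences in the share left. The 24 members at 100 CPM or more with erastin had a median log2 share of 0.448, the 37 from 20 to 100 CPM 0.357 and the 35 under 20 CPM 0.423. The spread within groups was larger at low levels. The median coefficient of variation (SD over mean) under co-treatment was 5.66%, 12.1% and 19.5% in these tiers, and in controls 10.3%, 20.4% and 45.4%. Over all members the medians were 23.5% for control, 13.8% for erastin and 13.5% for co-treated libraries, beside 14.7%, 14.7% and 12.2% over all transcripts tested. The choice bears on these spreads, since libraries of different groups could not overlap.

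In all, 11 of the 96 members had libraries 2-fold or more apart within the erastin or the co-treated group. The widest with erastin was that of rank 63, at 6.24, 9.83 and 37.5 CPM, 6.01-fold apart. It was at 0.666, 0.256 and 0.471 CPM in controls and at 1.91, 0.882 and 1.78 CPM under co-treatment. At rank 34 erastin replicate 3 was likewise the high library, with 53.8, 45.9 and 117 CPM with erastin. Across the members that library was not the high one more often than the others: erastin replicate 3 was the highest of its group for 20 of the 96 members (20.8%) and for 28.2% of all transcripts tested. Co-treated replicate 1 was the highest of its group for 45 members (46.9%), beside 39.7% of all transcripts tested.

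The fit over all 17123 tested transcripts was read for the members as a description, since the choice used the same contrasts. For erastin against control it called 94 of the 96 members higher, where 26.6% of all transcripts tested were called higher. The median log2 fold change in this fit was 3.06 for the members and 0.02 for all tested. For the co-treatment against erastin it called 84 members lower, beside 25.9% of all tested, with medians of -1.74 and -0.02. For the co-treatment against control it called 75 members higher, beside 7.70% of all tested, with medians of 1.25 and -0.03. The order that the choice required, every erastin library above every co-treated and every co-treated above every control library, was met by 4.54% of all tested. Each pair of these comparisons shares a group of libraries.

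In 12 members at least 1 control library had no count, 8 of them with 1 such library and 4 with 2, while no member was at 0 in all 3. A count of 0 allows up to 3 counts, or 0.0766 to 0.0800 CPM in the control libraries. No erastin or co-treated library was at 0 for any member. Of these 12 members, 10 were among the 12 that the fit did not call lower under co-treatment than with erastin. The difference in this comparison leaves out the control libraries, while its estimate of the spread includes them. Whether the counts of 0 account for the missing calls was not tested. With only the 6 erastin and co-treated libraries in the fit, all 12 members with a control library at 0 were called lower, and 94 of the 96 members in all. The share of all transcripts called lower in that fit is not given here, so these counts have no background beside them. Both members not called for erastin against control, ranks 49 and 89, also had a control library at 0. Of the 21 members not called higher under co-treatment than in controls, 8 had a control library at 0 and 13 were above 0 in every control library.

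In 2 members the control libraries went from 0 to 5 CPM or more. The member of rank 49 was at 0, 7.15 and 11.1 CPM in controls, 42.0, 28.4 and 26.9 CPM with erastin, and 16.2, 24.1 and 16.1 CPM under co-treatment. The member of rank 35 was at 11.5, 11.6 and 0 CPM in controls, 62.6, 74.6 and 74.4 CPM with erastin, and 15.7, 17.7 and 19.7 CPM under co-treatment. Its control library at 0, replicate 3, lowers its control mean. Its log2 difference of 1.15 (SE 1.53) from control under co-treatment rests in part on that 0. The other control libraries, at 11.5 and 11.6 CPM, lie below the lowest co-treated library at 15.7 CPM. Neither was called for the co-treatment against control (edgeR adjusted p 0.405 and 0.548). Whether the 0 comes from assigning reads to another transcript of the gene was not tested.

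Because the choice used every library, it was repeated on the libraries of only 2 replicate numbers, and the 3 libraries of the number left out (1 per group) were then read. Without number 1 the rule took 109 transcripts, 80 of them among the 96 members. In the left-out libraries 99 of the 109 (90.8%) again had control lowest and erastin highest, an order held by 24.6% of all transcripts tested. Without number 2 it took 125 (84 of them members), and 105 (84.0%) kept the order, against 21.1% of all tested. Without number 3 it took 138 (82 members), and 104 (75.4%) kept the order, against 17.6% of all tested. The transcripts taken had been picked for a large rise and those tested had not, so these gaps lend the members no support.

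Sizes in the left-out libraries were smaller than in those that chose the transcripts. The median log2 difference of the co-treatment from control went from 1.08 to 0.97 for number 1, from 1.19 to 0.85 for number 2 and from 1.11 to 0.74 for number 3. Differences of at least 0.7 were met by 75 of 109, 71 of 125 and 71 of 138 transcripts. The median log2 share left went from 0.415 to 0.351, from 0.437 to 0.349 and from 0.380 to 0.291. The left-out medians include some transcripts whose rise there was 0 or below, for which such a share has no clear meaning. The median rise with erastin went from 2.84 to 2.81, from 2.92 to 2.62 and from 2.94 to 2.40. The shares left printed above for the 96 members come from the libraries that chose them. In the left-out libraries all 3 medians were lower than that of the 96 members.

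Other strong rises were read in the same way. These were the transcripts that met the bounds on the erastin mean, the rise and the overall mean in the same 6 libraries and that the full rule did not take, 483, 437 and 543 of them. In the left-out libraries 52.0%, 46.5% and 40.0% of them were in the order control, co-treated, erastin, against the 90.8%, 84.0% and 75.4% of those taken. Their median log2 difference of the co-treatment from control there was 0.20, 0.06 and 0.00. The rule left these transcripts out on the same differences, so their lower values follow in part from the cut and lend the members no support. The bounds of the rule were also chosen with earlier results of these data known. No p is attached to these shares, since transcripts of 1 library are not independent, and the left-out libraries of a number are not paired by the labels.

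**Figure D5:**
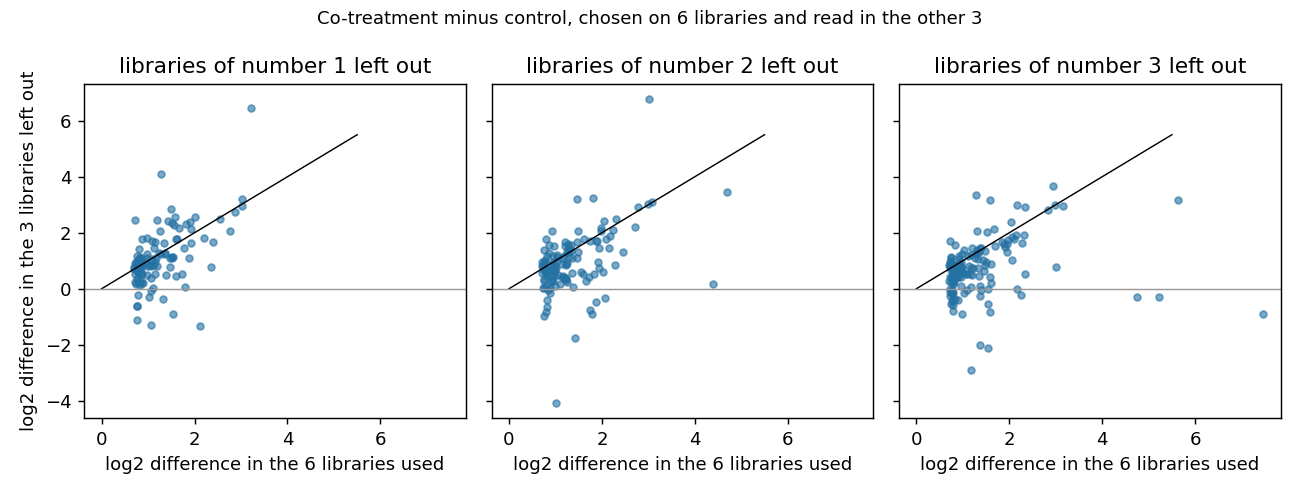
Transcripts chosen on 6 libraries, with their log2 difference of the co-treatment from control in those 6 (horizontal axis) and in the 3 libraries left out (vertical axis), in 1 panel for each replicate number left out. The black line marks equal values and the grey line 0. Most points lie above 0 (99 of 109, 113 of 125 and 107 of 138), with medians of 0.97, 0.85 and 0.74.

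In all 9 libraries 568 transcripts had at least 5 CPM with erastin and a log2 rise of at least 2, and 564 of these had an overall mean under 1000 CPM. In 400 of the 564 the co-treated mean was less than 0.7 above control, with a median log2 difference of 0.11 from control. In the other 164 it was at least 0.7 above control. Of these, 26 fell by less than 0.5 on the log2 scale or did not fall, with a median log2 difference of 2.50 from control under co-treatment. Another 138 fell by at least 0.5. In 42 of the 138 libraries of different groups overlapped, which left the 96 members. The median rise was 2.85 in the members, 2.35 in the 400 and 2.56 in the 26, and median control levels were 4.40, 5.94 and 4.49 CPM. These 3 sets were cut from the same values, so their differences were not tested.

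Several bounds cut through a continuous range. The member nearest to the bound on the rise had 2.005 and the nearest transcript outside it 1.995, with 69 transcripts failing on this bound alone. For the difference left from control these values were 0.707 and 0.683, with 45 failing on it alone. On the fall the gap was wider, at -0.60 inside and -0.35 outside, and 2 failed on it alone. For the erastin mean the values were 5.10 and 3.37 CPM, with 5 failing on it alone. Just 1 transcript met every bound except that on the overall mean.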

How the data were processed

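Poly(A) RNA was sequenced on an Illumina NovaSeq instrument, per the labels' protocols. The authors deposited raw counts per Ensembl rat transcript, whole numbers with 1 column per library, per the file headers. The submitters list HISAT2 2.2.1 and Rnor 6.0, per the submitters' processing notes. How these were used, which program counted reads, from which annotation, and how shared reads and strand were treated is not given in the sources used, so overlapping and antisense transcripts are uncertain.

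Columns were assigned by the names in the titles. Calls come from the quasi-likelihood test of edgeR (edgeR 4.0.16, R 4.3.3, limma 3.58.1) on all 9 libraries, with TMM scaling, edgeR's filter on low counts and Benjamini-Hochberg adjustment over 17123 transcripts, called at an adjusted p of 0.05. SE values come from log2(CPM + 0.5) of the libraries and belong to a difference of mean log2 values. The log2 differences printed beside them are of group means of CPM, which can differ from it where libraries spread widely. The members and every list and cut in the text were chosen with earlier results of these data known. Members printed by ID are those with the highest erastin CPM and, with 0.5 CPM added, the largest log2 rise, the largest log2 fall and the smallest log2 fall. Alternatives were DESeq2 1.42.0, upper quartile scaling, other filters and pseudocounts, a replicate block, fits on 6 libraries and leaving out each library. The labels do not pair libraries that share a replicate number, so the numbers were not taken as pairs. Same-numbered libraries leaned weakly towards deviating together over all transcripts tested. Since no molecular identifiers are described, the floors given for a count of 0 cover only counting error.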

Additional observations from a re-analysis of the deposited data

How the results depend on the processing

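Over all alternatives that kept the 96 members, those called numbered 91 to 95 for erastin against control (94 in the main test), 79 to 94 for the co-treatment against erastin (84) and 55 to 85 for the co-treatment against control (75), none more than 1.5 times away. Of the 85 members left without the 11 that were 2-fold or more apart within a treated group, 83, 76 and 68 were called. With the replicate number as a block they were 93, 84 and 70. The share of all transcripts called is given only for the main test, so the counts under alternatives have no background beside them. In their deviations from group means, same-numbered libraries correlated at -0.0126 to 0.111 over all transcripts tested and at -0.269 to 0.279 over the members. Over all transcripts tested, only control 3 with erastin 3 lay below 0 among these pairs. For libraries of different numbers the ranges were -0.108 to 0.0757 and -0.335 to 0.186, and most pairs lay below 0 over all transcripts tested. Whether libraries of a number share a batch was not tested. The rule found 78 transcripts with a pseudocount of 1 and 114 with 0.1, 86 on TMM-adjusted and 88 on upper quartile-adjusted library sizes, and 96 to 133 when 1 library was left out (133 without control replicate 3). It lost at most 14 of the 96 when 1 library was left out. The median log2 share left, 0.413, moved by more than 0.00931, its SD over co-treated libraries, to 0.398 on TMM-adjusted sizes, 0.441 and 0.385 with pseudocounts of 0.1 and 1, and 0.396 without those 11 members, an alternative chosen after seeing the data, as was the repeat of the rule on 6 libraries. It was 0.398 to 0.423 with 1 library left out, and it moved by more than that SD without co-treated replicate 1 (0.423) or 3 (0.398). For the 4 transcripts named by ID, all 264 recomputed levels and log2 differences stayed within 1 SD. For ENSRNOT00000077261 that SD is wide enough to hold a co-treated mean of 10.5 in place of 21.6 CPM without co-treated replicate 1. Leaving out 1 of 3 libraries cannot move a group mean by its SD. For those levels the outcome was thus fixed in advance. Counts near 0 in controls limit the precision of the rises of low members.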
